A study of Mus musculus with 8 samples.

Results

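The genes described here are the matrix metalloproteinases (MMP), the secreted ADAMTS proteases and the tissue inhibitors of metalloproteinases (TIMP) in mouse skin. They were taken from the deposited table as every gene whose symbol is Mmp, Adamts or Timp followed directly by a digit, which leaves out the ADAMTS-like genes. The rule gave 46 of the 34745 genes in the table: 23 MMP, 19 ADAMTS and 4 TIMP genes. The rule itself uses no expression value.

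RNA was sequenced from the excised skin of 8 mice killed at the age of 16 weeks, in 2 groups of 4. All carried floxed Ncstn alleles (Ncstn flx/flx) and 1 copy of Krt14 CreER, according to the protocol. The NcstnΔKC group was given tamoxifen by gavage, 20 mg/kg daily over 5 days beginning at 8 weeks, with further doses at 10-day intervals. The normal group was given corn oil in the same volume, although its genotype label reads wildtype. Ncstn encodes nicastrin, a subunit of γ-secretase. The keratin 14 promoter is active in basal keratinocytes of the epidermis and hair follicle, so recombination was aimed at keratinocytes, while the libraries held RNA of the whole tissue. The labels number the replicates and do not say more about their origin, so p-values measure the spread between these samples.

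MMPs are zinc-dependent proteases that are mostly secreted as inactive precursors and cleave collagens, gelatin, elastin and other matrix proteins. ADAMTS proteases carry thrombospondin repeats, and their best known members cut large proteoglycans such as versican and aggrecan or trim procollagens. TIMPs bind the active site of these enzymes. In wounded or inflamed skin, keratinocytes at the wound edge, fibroblasts, macrophages and neutrophils are known sources of MMPs.

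Total counts were 11881506 to 12893174 per NcstnΔKC library and 5835422 to 8663753 per normal library. Values per library are given in CPM, read counts relative to library size after scaling by the TMM method. The targeted gene had 66.4, 49.9, 57.4 and 55.8 CPM in NcstnΔKC replicates 1 to 4 and 60.3, 61.5, 60.9 and 58.0 CPM in normal replicates 1 to 4. Ncstn therefore did not pass the test (log2 fold change -0.07 ± 0.12 SE, edgeR adjusted p = 0.663), and whole-skin counts did not check the label. NcstnΔKC replicate 1 stood apart on the second principal component, which held 13.5% of the variance. All mice were labelled male, but replicates 3 and 4 of both groups held 22304 to 37109 counts of Xist and the other 4 libraries held 4 to 9. Of the marker genes tested, 6 of 11 for macrophages and 4 of 5 for mast cells were higher in NcstnΔKC skin. All 12 for skeletal muscle, 7 of 9 for adipocytes, 8 of 8 for hair follicle and 4 of 6 for pericytes and smooth muscle were lower. Single libraries stood apart in these sums. Hair follicle markers summed to 37420 CPM in normal replicate 2 and 240 to 685 CPM in the other normal libraries. Skeletal muscle markers summed to 21130 CPM in normal replicate 1, below the 27280 CPM of NcstnΔKC replicate 1. In whole tissue, fewer cells of a type and less RNA per cell cannot be told apart.

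A filter on low counts left 35 of the 46 genes among the 15684 genes tested. The threshold was an adjusted p of 0.05 in edgeR's quasi-likelihood test. Of the 35 genes, 12 were higher and 6 were lower in NcstnΔKC skin, and 17 did not pass. Over all tested genes 44.1% passed, 21.4% higher and 22.7% lower. The corresponding shares of the 35 genes were 51.4%, 34.3% and 17.1%. A log2 fold change of at least 1 together with the threshold was found for 11 of the 35, against 10.2% of all tested genes. The groups did not overlap in 9 genes that were higher and 3 that were lower in NcstnΔKC skin, whereas 41.6% of all tested genes had groups that did not overlap, 20.9% above and 20.7% below the normal libraries. The median log2 fold change was 0.33 over the 35 genes and -0.022 over all tested genes. By family it was 1.22 for 16 MMP genes, -0.32 for 15 ADAMTS genes and -0.16 for 4 TIMP genes. Mmp8 and Mmp13 passed the filter through the NcstnΔKC libraries alone, since neither reached 1 CPM in any normal library, so their calls had to point one way. Of the other 33 genes, 10 were higher and 6 were lower, with a median log2 fold change of 0.33, and the median of the other 14 MMP genes was 1.055. Setting Mmp8 and Mmp13 aside was chosen after seeing the data.

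The split moved with the scaling. With total counts alone, 15 genes were called higher and 2 lower, and the median of all tested genes moved to 0.30. Scaled to basal keratinocyte genes, 11 were called higher and 10 lower, and that median moved to -0.50. All 18 genes called in the TMM fit kept their sign under both scalings.

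**Figure D1:**
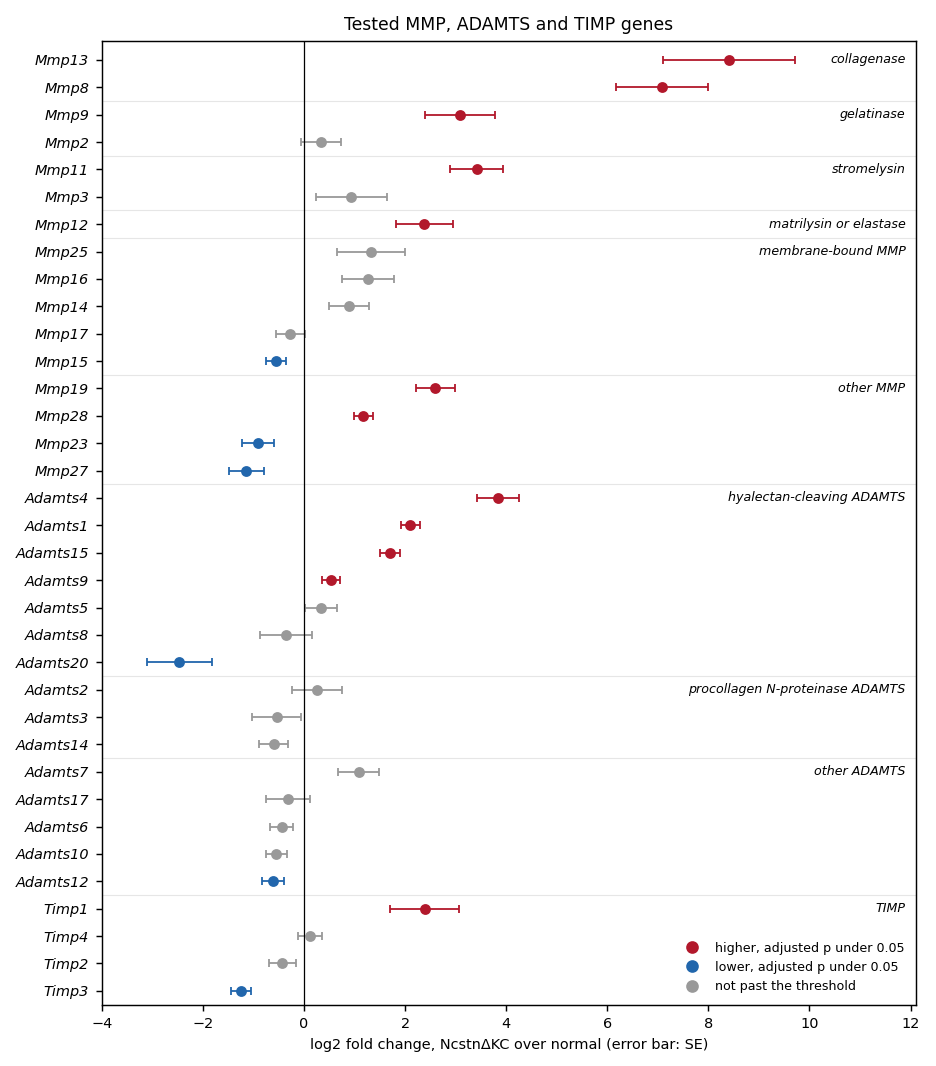
Log2 fold change (NcstnΔKC over normal, x axis) with its standard error for the 35 tested genes, grouped by role on the y axis. Red (higher) and blue (lower) points passed an edgeR adjusted p of 0.05, grey points did not, and the values run from 8.41 for Mmp13 to -2.47 for Adamts20.

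The collagenases cut the triple helix of fibrillar collagen. Their counts were nearly all in NcstnΔKC libraries, and Mmp13 and Mmp8 are given by their counts, because they entered the test through those libraries alone. Mmp13 (ENSMUSG00000050578, chr9:7272514-7283333), the main interstitial collagenase of mouse skin, had 6.17, 67.6, 213 and 248 CPM in NcstnΔKC replicates 1 to 4. In normal replicates 1 to 4 it had 0.453, 0.801, 0 and 0.388 CPM. The groups did not overlap, but NcstnΔKC replicate 1 lay far below the other NcstnΔKC libraries. Counts summed to 7881 in NcstnΔKC and 10 in normal skin. After division of each sum by the summed TMM-scaled library sizes of its group, as in all ratios and bounds given here, the ratio was 371 with a 95% counting interval of 202 to 774. The fitted log2 fold change was 8.41 ± 1.31, and 8.81 without NcstnΔKC replicate 1. limma-voom did not call the gene (7.66, adjusted p = 0.0766).

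Mmp8 (ENSMUSG00000005800, chr9:7558429-7568486), the collagenase stored in neutrophil granules, had 4.42, 24.1, 34.2 and 46.2 CPM in NcstnΔKC skin. It had 0, 0.200, 0.281 and 0.259 CPM in normal skin. Again the groups did not overlap and NcstnΔKC replicate 1 was the lowest of its group. Counts summed to 1599 in NcstnΔKC and 5 in normal skin, a ratio of 150.5 after scaling for library size, with a counting interval of 64.3 to 464. The fitted log2 fold change was 7.09 ± 0.91.

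Mmp1a and Mmp1b, the mouse genes most like human interstitial collagenase, stayed below the filter. Mmp1a is annotated as a polymorphic pseudogene. Mmp1b had 53 counts in NcstnΔKC skin, 46 of them in replicates 3 and 4, and 0 counts in normal skin. Set against a floor of 3 counts over the normal group and scaled for library size, it was at least 8.31-fold higher. Mmp1a had 8 counts, all in NcstnΔKC replicates 3 and 4, and 0 in normal skin. Of the Mmp1b transcript sequence, 20.7% of 31-base stretches also occur in another gene, mainly Mmp1a, so reads could be split between the pair.

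These genes lie in a cluster of 10 MMP genes over 427 kb of chromosome 9 (chr9:7272514-7699585 in GRCm38), in the order Mmp13, Mmp12, Mmp1b, Mmp3, Mmp1a, Mmp10, Mmp8, Mmp27, Mmp20 and Mmp7. Of the 5 cluster genes tested, Mmp13, Mmp12 and Mmp8 were higher, Mmp27 was lower and Mmp3 did not pass. The proximal promoters of several cluster genes hold the letters TGAGTCA, the heptamer bound by AP-1 (Fos and Jun) proteins, on either strand (TGACTCA on the other). Of the RefSeq promoter windows, from 250 bases before to 50 after the start, 35 belong to 32 of the 46 genes. The heptamer was in windows of 7 genes, all 7 in the cluster, and in 5.2% of the 32851 windows of all genes. The 120 bases before the start are shown for Mmp13, Mmp10 and Mmp12, which had more counts in NcstnΔKC skin, for Mmp3, which did not pass, and for Mmp7, which had 0 counts in every library. All are on the plus strand of GRCm38.p6, 5′ to 3′, from RefSeq, with the heptamer in capitals.

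Mmp13, chr9:7272394-7272513: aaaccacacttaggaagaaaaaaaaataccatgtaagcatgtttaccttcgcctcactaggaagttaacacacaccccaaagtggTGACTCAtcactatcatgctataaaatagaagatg
Mmp10, chr9:7502222-7502341: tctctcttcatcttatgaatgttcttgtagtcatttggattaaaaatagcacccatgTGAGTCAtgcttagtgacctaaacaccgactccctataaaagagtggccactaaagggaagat
Mmp12, chr9:7347254-7347373: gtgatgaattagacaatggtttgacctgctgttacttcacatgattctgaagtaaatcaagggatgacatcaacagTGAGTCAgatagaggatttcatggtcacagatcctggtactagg
Mmp3, chr9:7445702-7445821: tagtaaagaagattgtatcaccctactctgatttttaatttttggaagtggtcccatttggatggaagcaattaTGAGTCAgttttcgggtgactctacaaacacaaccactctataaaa
Mmp7, chr9:7691970-7692089: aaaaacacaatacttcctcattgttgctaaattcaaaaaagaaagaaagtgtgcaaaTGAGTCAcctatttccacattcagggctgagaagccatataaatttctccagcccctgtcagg

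The heptamer began 35 bases before the start in Mmp13, 44 in Mmp12, 46 in Mmp3 and 63 in both Mmp10 and Mmp7. Mmp12 and Mmp7 each have another window, from another start, without the heptamer. For Mmp12 that window (chr9:7344147-7344446) holds the deposited gene start, and the window shown lies inside the gene. The remaining genes with it were Mmp1a (73 bases) and Mmp1b (93 bases). Its letters were not in the windows of Mmp8, Mmp27 and Mmp20, and Mmp8 was higher and Mmp27 lower in NcstnΔKC skin. The heptamer was therefore found in windows of cluster genes that were called, not called and not detected. Mmp13 and Mmp8 could only be called higher, so their calls do not relate the heptamer to the direction of change, which was not tested. The hexamer TATAAA, a core promoter element, was in windows of 11 of the 46 genes, 9 of them in the cluster, and in 13.6% of all windows on either strand.

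**Figure D2:**
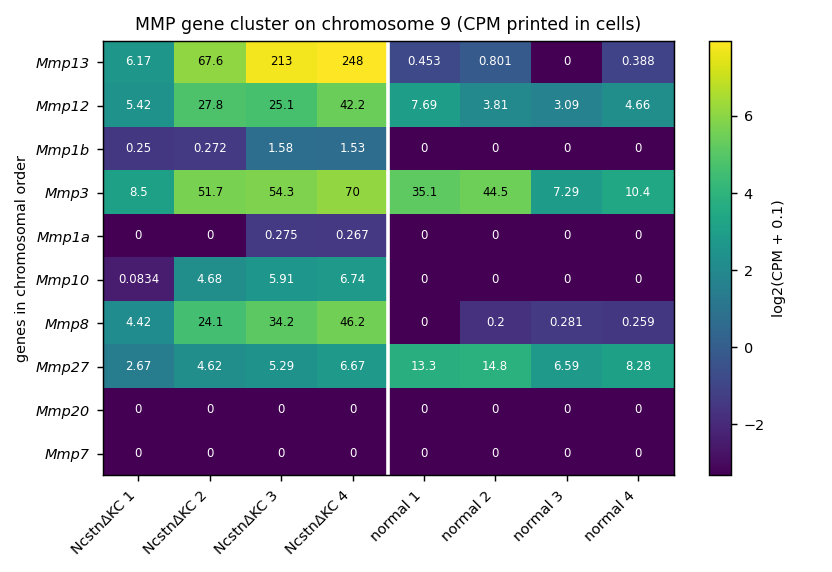
Cluster genes of chromosome 9 in their genomic order from top to bottom, with 1 column per library, NcstnΔKC left of normal, colour for log2 of CPM after adding 0.1, and the CPM printed in each cell. Mmp13 and Mmp8 are brighter in every NcstnΔKC library than in any normal one, Mmp10, Mmp1a and Mmp1b have counts in NcstnΔKC libraries alone, and Mmp20 and Mmp7 are at 0 in all 8.

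Stromelysins are named for cleaving proteoglycans and other non-collagen substrates, and Mmp12 is the macrophage elastase. Mmp11 (ENSMUSG00000000901, chr10:75923222-75932502), stromelysin-3 of stromal cells, had 41.7, 39.7, 71.4 and 78.8 CPM in NcstnΔKC skin. It had 3.47, 10.2, 1.40 and 6.99 CPM in normal skin. The groups did not overlap (log2 fold change 3.41 ± 0.53, edgeR adjusted p = 0.00138).

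Mmp10 (ENSMUSG00000047562, chr9:7502352-7510238), stromelysin-2 of wound-edge keratinocytes, was not tested because of the filter. It had 0.0834, 4.68, 5.91 and 6.74 CPM in NcstnΔKC skin and 0 counts in all 4 normal libraries. With 257 counts against the floor of 3, scaled for library size, it was at least 40.3-fold higher, and at least 51.0-fold higher without NcstnΔKC replicate 1, which held 1 count. Mmp3, stromelysin-1, had 8.50, 51.7, 54.3 and 70.0 CPM in NcstnΔKC skin and 35.15, 44.5, 7.29 and 10.4 CPM in normal skin. The Mmp3 groups overlapped (0.94 ± 0.70, edgeR adjusted p = 0.303), and the normal libraries fell into a high pair without Xist and a low pair with it. Mmp3 and Mmp10 share 14.6% and 11.9% of their 31-base stretches with other genes, mainly with each other.

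Mmp12 (ENSMUSG00000049723, chr9:7344381-7369499) had 5.42, 27.8, 25.1 and 42.2 CPM in NcstnΔKC skin. It had 7.69, 3.81, 3.09 and 4.66 CPM in normal skin. NcstnΔKC replicate 1 lay within the normal range and the other 3 NcstnΔKC libraries lay above it (log2 fold change 2.38 ± 0.57, edgeR adjusted p = 0.00923). That call also ended with limma-voom (2.16, adjusted p = 0.0559). Mmp7, the matrilysin of glandular epithelia, had 0 counts in all libraries.

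Of the gelatinases, which degrade denatured collagen and basement membrane collagen, Mmp9 rose and Mmp2 did not pass. Mmp9 (ENSMUSG00000017737, chr2:164940780-164955850) had 14.3, 70.8, 195 and 200 CPM in NcstnΔKC skin. It had 12.2, 12.6, 16.4 and 15.4 CPM in normal skin. The normal libraries were close together, NcstnΔKC replicate 1 lay among them, and the other 3 NcstnΔKC libraries were above all of them. The log2 fold change was 3.08 ± 0.69 (edgeR adjusted p = 0.00723), without NcstnΔKC replicate 1 it was 3.45, and with limma-voom the call ended (2.49, adjusted p = 0.0656). Mmp2 (ENSMUSG00000031740, chr8:92827328-92853417), a gelatinase of fibroblasts, had 293, 323, 343 and 341 CPM in NcstnΔKC skin. It had 339.8, 437, 111 and 146.5 CPM in normal skin. NcstnΔKC libraries were nearly alike while normal replicates 1 and 2 stood above replicates 3 and 4, and the groups overlapped (0.33 ± 0.39, edgeR adjusted p = 0.515).

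Membrane-bound MMPs act at the cell surface, and Mmp14 among them activates the Mmp2 precursor together with Timp2. None of the 5 tested was called higher, Mmp15 alone was called lower, and 2 had an unadjusted p under 0.05 in the higher direction. Mmp14 (ENSMUSG00000000957, chr14:54431612-54441265) had 325, 322, 328 and 349 CPM in NcstnΔKC skin and 199, 325, 72.2 and 118 CPM in normal skin. Its NcstnΔKC libraries again differed little, and normal replicate 2 reached their level (0.89 ± 0.39, edgeR adjusted p = 0.0924). Mmp15 (ENSMUSG00000031790, chr8:95352268-95374293) had 16.8, 10.8, 13.3 and 14.8 CPM in NcstnΔKC skin and 15.4, 21.6, 22.6 and 22.4 CPM in normal skin. The groups overlapped through normal replicate 1 (-0.56 ± 0.20, edgeR adjusted p = 0.0433), and the call ended in 6 of the 8 fits that left out 1 library, all but those without NcstnΔKC replicate 1 or normal replicate 1. Mmp16, Mmp25 and Mmp17 had log2 fold changes of 1.26, 1.32 and -0.27 with edgeR adjusted p of 0.0717, 0.140 and 0.486. Mmp24 had 10 counts in NcstnΔKC and 2 in normal skin.

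Outside these classes 2 MMPs were higher and 2 were lower. Mmp19 (ENSMUSG00000025355, chr10:128790953-128800824), which cleaves basement membrane proteins, had 27.6, 91.2, 104 and 108 CPM in NcstnΔKC skin. It had 14.0, 11.02, 13.2 and 16.2 CPM in normal skin. The groups did not overlap (2.60 ± 0.39, edgeR adjusted p = 0.00126). Mmp28 (ENSMUSG00000020682, chr11:83440768-83463071), epilysin of keratinocytes, had 30.2, 26.3, 30.2 and 25.4 CPM in NcstnΔKC skin against 14.3, 11.6, 14.9 and 8.80 CPM in normal skin. Its groups did not overlap and NcstnΔKC replicate 1 did not stand apart (1.18 ± 0.19, edgeR adjusted p = 0.00169).

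The other pair was lower, and both calls depended on which libraries were used. Mmp27 (ENSMUSG00000070323, chr9:7571396-7581885), a stromelysin-like enzyme, had 2.67, 4.62, 5.29 and 6.67 CPM in NcstnΔKC skin and 13.3, 14.8, 6.59 and 8.28 CPM in normal skin. The groups met between NcstnΔKC replicate 4 and normal replicate 3 (-1.15 ± 0.35, edgeR adjusted p = 0.0252), and the call ended without NcstnΔKC replicate 2 or 3 or normal replicate 1 or 2 (adjusted p = 0.0521 to 0.0834). Mmp23 (ENSMUSG00000029061, chr4:155650655-155653384), an atypical transmembrane MMP, had 1.92, 2.92, 4.33 and 3.34 CPM in NcstnΔKC skin and 6.49, 8.01, 4.49 and 4.79 CPM in normal skin. The groups did not overlap but nearly touched (-0.91 ± 0.31, edgeR adjusted p = 0.0402), and the call ended in 7 of the 8 fits without 1 library, the exception being NcstnΔKC replicate 3. Mmp20, the enamel protease, had 0 counts everywhere, and Mmp21 had 4 counts in NcstnΔKC and 1 in normal skin.

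**Figure D3:**
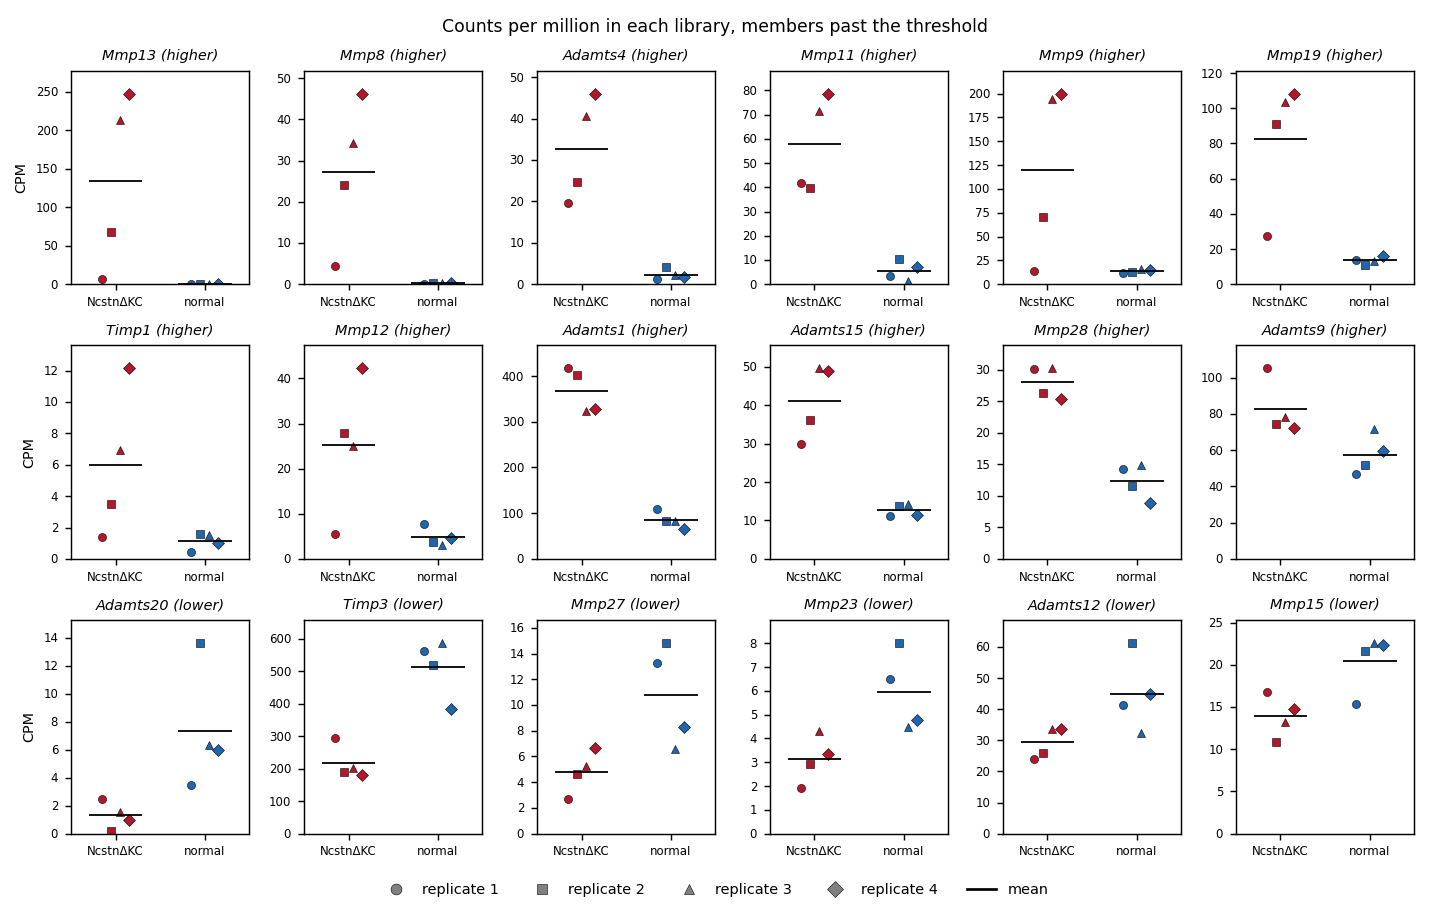
CPM (linear y axes from 0) in each of the 8 libraries for the 12 genes called higher and the 6 called lower, NcstnΔKC left of normal, with a point shape per replicate number and a bar at the group mean. NcstnΔKC replicate 1 is the lowest NcstnΔKC library for Mmp13 at 6.17 CPM and Mmp9 at 14.3 CPM, whereas for Adamts1 it is the highest at 417 CPM.

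Among the 7 ADAMTS proteases known for cleaving versican, aggrecan and related proteoglycans, 4 were higher, 1 was lower and 2 did not pass. Adamts1 (ENSMUSG00000022893, chr16:85793827-85803113) had the highest mean FPKM of the 7 in both groups. It had 417, 402, 324 and 328 CPM in NcstnΔKC skin, against 110.0, 83.1, 83.7 and 64.9 CPM in normal skin. All NcstnΔKC libraries were close together and far above the normal ones, replicate 1 included (2.11 ± 0.18, edgeR adjusted p = 1.27e-04).

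Adamts4 (ENSMUSG00000006403, chr1:171250421-171260637), an aggrecanase, had 19.5, 24.6, 40.6 and 46.0 CPM in NcstnΔKC skin. It had 1.36, 4.21, 2.10 and 1.68 CPM in normal skin, and the groups did not overlap (3.84 ± 0.42, edgeR adjusted p = 2.91e-04). Adamts15 (ENSMUSG00000033453, chr9:30899155-30922452), a versican-cleaving enzyme, had 30.0, 36.1, 49.6 and 49.0 CPM in NcstnΔKC skin and 11.2, 13.8, 14.3 and 11.4 CPM in normal skin. It too separated the groups (1.70 ± 0.20, edgeR adjusted p = 4.19e-04).

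Adamts9 (ENSMUSG00000030022, chr6:92772699-92943492), which also acts on versican, had 105, 74.5, 78.4 and 72.2 CPM in NcstnΔKC skin and 46.8, 51.7, 71.5 and 59.4 CPM in normal skin. The gap between the groups was small (0.53 ± 0.18, edgeR adjusted p = 0.0382). The call ended without NcstnΔKC replicate 1 or 3 or normal replicate 1 or 2 (adjusted p = 0.0522 to 0.0634) and with basal keratinocyte scaling (0.065, adjusted p = 0.855). Adamts20 (ENSMUSG00000022449, chr15:94270163-94465418), known from the belted pigment mutant of the mouse, had 2.50, 0.204, 1.58 and 1.001 CPM in NcstnΔKC skin. It had 3.47, 13.6, 6.31 and 5.95 CPM in normal skin, without overlap (-2.47 ± 0.65, edgeR adjusted p = 0.0141). Adamts5, a main aggrecanase of cartilage, had 58.1 to 152 CPM in NcstnΔKC and 62.3 to 124 CPM in normal skin (0.33 ± 0.32, edgeR adjusted p = 0.420), and Adamts8 stayed under 4 CPM (-0.36 ± 0.52, edgeR adjusted p = 0.599).

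Adamts1 and Adamts5 are neighbours on chromosome 16, 55.1 kb apart, and Adamts15 and Adamts8 lie 20.1 kb apart on chromosome 9. In each pair 1 gene was called higher (Adamts1 at 2.11, Adamts15 at 1.70) and the other did not pass (Adamts5 at 0.33, Adamts8 at -0.36). The difference within a pair was not tested.

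The 3 procollagen N-proteinases, which remove the amino-terminal propeptide of fibrillar procollagens, did not pass, and none had an unadjusted p under 0.05 in edgeR. Adamts2 had 201, 187, 251 and 256 CPM in NcstnΔKC skin and 288, 319, 73.1 and 69.3 CPM in normal skin (0.26 ± 0.49, edgeR adjusted p = 0.694). The NcstnΔKC libraries lay between a high normal pair without Xist and a low normal pair with it. Adamts14 and Adamts3 had log2 fold changes of -0.60 and -0.54 (edgeR adjusted p of 0.118 and 0.393).

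Of the other ADAMTS genes, Adamts12 alone was called. Adamts12 (ENSMUSG00000047497, chr15:11064790-11346867), which cleaves cartilage oligomeric matrix protein, had 24.0, 26.1, 33.5 and 33.6 CPM in NcstnΔKC skin and 41.5, 61.3, 32.4 and 44.9 CPM in normal skin. The groups overlapped (-0.62 ± 0.21, edgeR adjusted p = 0.0414), and the call ended in 7 of the 8 fits without 1 library, all but the one without normal replicate 3. Adamts7, Adamts10, Adamts6 and Adamts17 had log2 fold changes of 1.08, -0.55, -0.44 and -0.32 with edgeR adjusted p of 0.0543, 0.0567, 0.144 and 0.570.

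Below the filter, Adamts16 had 25 counts in NcstnΔKC and 1 in normal skin, a ratio of 11.8 after scaling for library size, with a counting interval of 1.93 to 483. The single normal count came from replicate 2, and without that library Adamts16 was at least 3.18-fold higher in NcstnΔKC skin. Adamts19 ran the other way, with 2 counts in NcstnΔKC and 43 in normal skin, and the scaled ratio of normal over NcstnΔKC was 45.7 (11.9 to 389). It was 71.9 without NcstnΔKC replicate 1 and 67.7 without NcstnΔKC replicate 3, which held 1 count each. Adamts18 had 28 counts in NcstnΔKC and 38 in normal skin, and normal replicate 2 stood above every other library at 5.81 CPM. Adamts13, the von Willebrand factor protease made mainly in liver, had 6 counts in NcstnΔKC and 5 in normal skin. Adamts16 and Adamts19 were called in the fit with no filter (3.26 with edgeR adjusted p = 0.0276 for Adamts16, and -4.96 with edgeR adjusted p = 0.00168 for Adamts19). That fit also called Mmp10 (edgeR adjusted p = 0.0396) and Mmp1b (edgeR adjusted p = 0.0164), for which no fitted fold is given, since all normal libraries were at 0.

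The 4 inhibitors did not move together: Timp1 was higher, Timp3 was lower, and Timp2 and Timp4 did not pass. Timp1 (ENSMUSG00000001131, chrX:20870166-20874735), an inducible secreted inhibitor, had 1.42, 3.53, 6.94 and 12.15 CPM in NcstnΔKC skin. It had 0.453, 1.60, 1.54 and 1.04 CPM in normal skin. NcstnΔKC replicate 1 lay within the normal range and the other 3 lay above it (2.38 ± 0.67, edgeR adjusted p = 0.0191). The log2 fold change was 1.79 without NcstnΔKC replicate 4 (edgeR adjusted p = 0.0468), and with limma-voom the call ended (2.10, adjusted p = 0.0788).

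Timp3 (ENSMUSG00000020044, chr10:86300372-86349506), the inhibitor held in the extracellular matrix that also acts on ADAM17 and aggrecanases, had 293, 191, 204 and 181 CPM in NcstnΔKC skin. It had 562, 520.5, 588 and 384 CPM in normal skin. Every NcstnΔKC library was below every normal one (-1.24 ± 0.20, edgeR adjusted p = 0.00161), and the log2 fold change stayed between -1.42 and -1.11 when any 1 library was left out. Timp2 (ENSMUSG00000017466, chr11:118301069-118355740), the constitutive inhibitor that takes part in Mmp2 activation, had 248, 392, 384 and 428 CPM in NcstnΔKC skin and 571, 669, 322 and 391 CPM in normal skin. These overlapped (-0.43 ± 0.26, edgeR adjusted p = 0.209). Timp4 (ENSMUSG00000030317, chr6:115241892-115252205), known mainly from heart, had 8.09, 4.68, 7.62 and 5.94 CPM in NcstnΔKC skin and 4.98, 5.81, 6.59 and 6.86 CPM in normal skin (0.12 ± 0.23, edgeR adjusted p = 0.713).

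The authors' FPKM values, which are scaled by gene length and library total, allow levels to be compared between genes. By mean FPKM the order in NcstnΔKC skin was Mmp2 (120.5), Timp2 (101), Adamts1 (65.1), Mmp14 (64.4), Mmp13 (57.7), Mmp9 (35.1), Mmp3 (29.6), Mmp19 (27.8), Timp3 (26.7) and Adamts2 (26.1). In normal skin it was Timp2 (107), Mmp2 (76.8), Timp3 (50.7), Mmp14 (27.8), Adamts2 (17.6), Mmp3 (12.2), Adamts1 (12.2), Adamts5 (10.4) and Adamts12 (6.46). Mmp2 was the MMP with the highest FPKM in every library. Mmp13 averaged 57.7 FPKM in NcstnΔKC and 0.139 in normal skin, and Mmp8 averaged 12.8 FPKM in NcstnΔKC and 0.0652 in normal skin. Both had the largest fitted log2 fold changes, but they entered the test through the NcstnΔKC libraries alone, so their low normal level was given in advance.

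FPKM summed over all MMP genes was 203, 348, 473 and 522 in NcstnΔKC replicates 1 to 4. In normal replicates 1 to 4 it was 186, 213, 61.4 and 90.7. NcstnΔKC replicate 1 lay inside the normal range and the other 3 lay above it. The ADAMTS sum was 124, 147, 147 and 153 FPKM in NcstnΔKC skin against 80.9, 76.8, 41.5 and 52.1 FPKM in normal skin, without overlap. The TIMP sum was 96.4, 141, 141 and 156 FPKM in NcstnΔKC skin against 199, 191, 120 and 128.5 FPKM in normal skin, and overlapped. FPKM is scaled by library total, and with total counts the median log2 fold change of all tested genes was 0.30, against -0.022 with TMM. All FPKM sums therefore lean toward NcstnΔKC skin relative to CPM. Whether the groups overlap in a sum can depend on this scaling. The sum of MMP over the sum of TIMP transcripts was 2.10, 2.48, 3.36 and 3.34 in NcstnΔKC skin and 0.932, 1.11, 0.512 and 0.705 in normal skin. This ratio separated the groups, replicate 1 included (2.82 ± 0.631 in NcstnΔKC and 0.816 ± 0.263 in normal skin, SD, n = 4 each). It is a ratio of transcripts and was not tested.

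**Figure D4:**
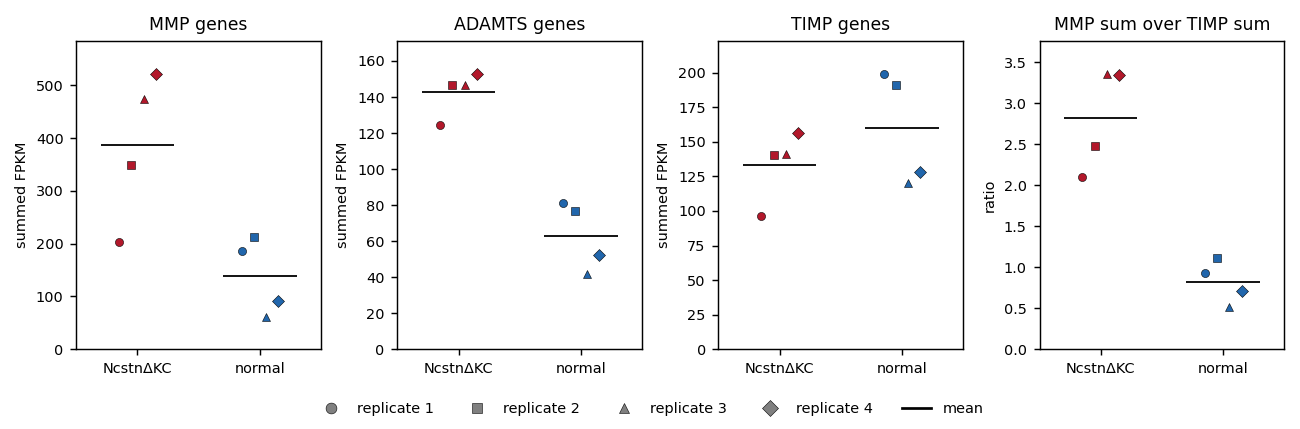
Summed FPKM of the MMP, ADAMTS and TIMP genes and the ratio of the MMP to the TIMP sum (y axes) in each library, NcstnΔKC left of normal, with a bar at each group mean. The ratio lies between 2.10 and 3.36 in NcstnΔKC libraries and between 0.512 and 1.11 in normal libraries.

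The make-up of the MMP sum also differed. Mmp2 and Mmp14 together gave 76.2%, 54.5%, 41.2% and 38.5% of it in NcstnΔKC replicates 1 to 4, against 77.4%, 80.3%, 65.7% and 69.5% in normal replicates 1 to 4. Mmp13 and Mmp9 gave 2.96%, 14.5%, 31.3% and 31.9% in NcstnΔKC skin and 1.73%, 1.41%, 5.58% and 4.10% in normal skin. NcstnΔKC replicate 1 had a make-up within the normal range by both measures. Mmp13 alone, however, gave 1.15% of the MMP sum in that library and 0% to 0.147% in normal libraries. Of the TIMP sum, Timp1 gave 1.07% to 6.53% in NcstnΔKC skin and 0.161% to 0.765% in normal skin.

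NcstnΔKC replicate 1 was below the other 3 NcstnΔKC libraries in 8 of the 12 genes called higher, between them in 2 and above them in 2. It was above every normal library in 9 of the 12 and within the normal range for Mmp9, Mmp12 and Timp1. Summed over 12 neutrophil markers, the level was 53.9, 141, 220 and 278 CPM in NcstnΔKC replicates 1 to 4 and 29.4, 62.1, 57.5 and 55.3 CPM in normal replicates 1 to 4. Most of the normal sum was Itgam, an integrin that macrophages also carry, at 24.9 to 55.9 CPM in normal skin. Without Itgam, a sum added after seeing the data, it was 32.5, 70.3, 137 and 187.5 CPM in NcstnΔKC skin and 4.53, 6.21, 6.73 and 9.19 CPM in normal skin, so NcstnΔKC replicate 1 was the lowest of its group and above every normal library. Of the 12, 8 passed the filter and 7 of these were higher. For 5 of the 8, which passed through the NcstnΔKC libraries alone, that direction was given in advance. One of these 5 was Cxcr2, a chemokine receptor, with 28.3 CPM in NcstnΔKC and 0.510 CPM in normal skin. Ltf, Ngp and Retnlg, also among the 5, averaged 10.5, 8.58 and 18.8 CPM in NcstnΔKC and 0.140, 0.202 and 0.208 CPM in normal skin. Ly6g was at 0 in normal skin and averaged 0.481 CPM in NcstnΔKC skin. The granule genes Mpo, Elane and Camp averaged under 1 CPM in both groups. Camp had 28 counts in NcstnΔKC and 1 in normal skin.

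Summed macrophage markers were 577, 2778, 3175 and 3718 CPM in NcstnΔKC skin and 609, 723, 651 and 1031 CPM in normal skin. Of the 11, 6 were higher and none lower, with a median log2 fold change of 1.53, and none of the 11 was at 0 in either group. The stress keratins Krt6a, Krt6b, Krt16 and Krt17 summed to 2168, 6340, 6892 and 6689 CPM in NcstnΔKC skin and 780, 1034, 593 and 618 CPM in normal skin, and 3 of the 4 were higher. Summed fibroblast markers were 1281, 2421, 2513 and 2711 CPM in NcstnΔKC skin and 3173, 2693, 2233 and 2677 CPM in normal skin, with 1 of 9 higher and 2 lower. Endothelial markers had 1 of 8 higher and 2 lower, and basal keratinocyte genes 10 of 13 higher and 2 lower. In the neutrophil, macrophage, stress keratin and fibroblast sums, as in Mmp13, Mmp9 and Mmp12, NcstnΔKC replicate 1 was the lowest of its group. In the skeletal muscle, adipocyte, endothelial, Schwann cell and pericyte sums the same library was the highest of its group. For skeletal muscle it had 27280 CPM against 4052 to 9071 in the other NcstnΔKC libraries. The part of the marker genes in the protease results was not tested.

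**Figure D5:**
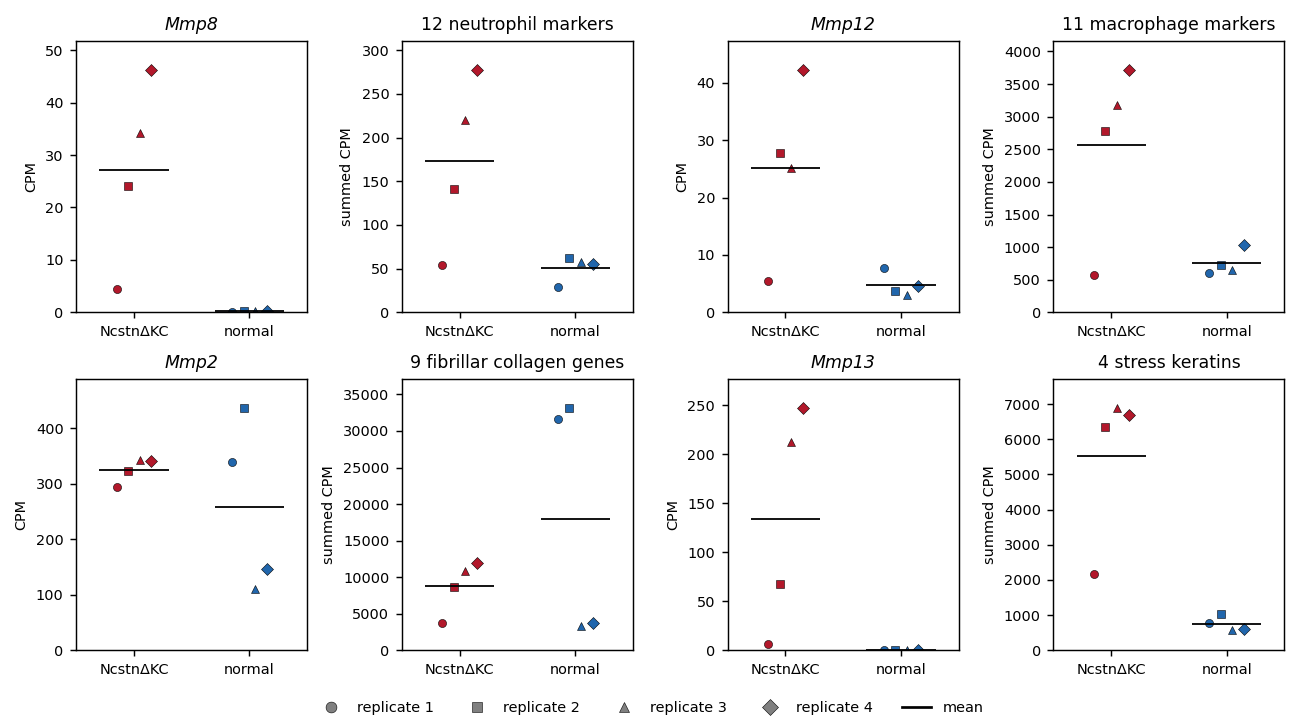
CPM of Mmp8, Mmp12, Mmp2 and Mmp13 in each library, each left of a panel of summed CPM for neutrophil markers, macrophage markers, fibrillar collagens or stress keratins (y axes), NcstnΔKC left of normal, with a point shape per replicate number and a bar at the group mean. NcstnΔKC replicate 1 has 53.9 CPM of neutrophil markers, of which 21.4 CPM are Itgam, and 577 CPM of macrophage markers, below the lowest normal library at 609.

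Xist divided each group into 2 libraries with and 2 without its transcripts, and the fold changes of several genes differed between the 2 subsets. In the subsets with and without Xist, the log2 fold change of Mmp2 was 1.45 and -0.33, that of Mmp14 1.87 and 0.30, that of Mmp3 2.85 and -0.40, and that of Adamts2 1.87 and -0.64. Over 35 genes, 28 had the same sign in both. The difference itself, tested in edgeR as an interaction over all 8 libraries, passed for no gene of the table (lowest adjusted p among the 35 genes 0.102, for Adamts2). An unadjusted p under 0.05 was found for 7 of the 35, a larger share than the 5.85% of all tested genes. Adamts1 had log2 fold changes of 2.17 with and 2.09 without Xist, and Timp3 had -1.30 with and -1.16 without. Other genes called lower were nearer 0 with Xist: Mmp27 had -0.278 with and -1.935 without, Mmp23 -0.238 and -1.569, and Adamts12 -0.167 and -1.033. Adamts20 had -2.20 with and -2.66 without Xist, and Mmp15 had -0.645 and -0.423. In the libraries with Xist alone, 19 genes were called higher and 6 lower of 38 tested, while 26.3% of all genes tested there were higher and 25.4% lower. Among the 38, Mmp8, Mmp13, Mmp10 and Mmp1b passed the filter through NcstnΔKC libraries alone, and Adamts19 through normal libraries alone. The calls of these genes had to point one way. In those without Xist alone edgeR called 0 of 35 and 0.0255% of all genes, and an unadjusted p under 0.05 was found for 15 of the 35 and for 25% of all genes.

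Genes that act with these enzymes were read from lists of related genes. In the plasminogen system, whose product plasmin activates several MMP precursors, 2 of 7 tested genes were higher and none lower. These were Plaur, the urokinase receptor (3.12 ± 0.47, edgeR adjusted p = 0.00117), and Serpinb2, a urokinase inhibitor (1.72 ± 0.20, edgeR adjusted p = 3.72e-04). Plau, urokinase itself, had 1.504 ± 0.55 (edgeR adjusted p = 0.0513). Of 8 tested inhibitors and binding partners, 1 was higher and 3 were lower. The higher one was Tfpi2 (2.60 ± 0.72, edgeR adjusted p = 0.0180), and Bsg, the MMP inducer basigin, had -1.03 ± 0.14 (edgeR adjusted p = 6.96e-04). Reck, a membrane-anchored MMP inhibitor, did not pass (0.28 ± 0.35, edgeR adjusted p = 0.541).

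Of 11 tested ADAM genes, the membrane-bound relatives of the ADAMTS proteases, 5 were higher and 2 lower. Adam8, of myeloid cells, had the largest log2 fold change (3.51 ± 0.35, edgeR adjusted p = 2.00e-04), with 128, 150, 185 and 200.3 CPM in NcstnΔKC skin and 14.6, 5.81, 16.1 and 20.97 CPM in normal skin. Of 6 ADAMTS-like genes, which lack the protease domain, none was higher and 3 were lower, with a median log2 fold change of -0.75. Of 7 tested astacin proteases and collagen crosslinking enzymes, 3 were higher and none lower, among them Bmp1, the procollagen C-proteinase, at 0.90.

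Substrates did not follow 1 direction. Of 8 tested proteoglycans and other ADAMTS substrates 3 were higher and 3 lower. Vcan, which encodes versican, had 0.57 ± 0.22 (edgeR adjusted p = 0.0613), and Dcn, which encodes decorin, was lower (-1.06 ± 0.23, edgeR adjusted p = 0.00603). Acan, which encodes aggrecan, was below the filter. None of 8 tested fibrillar collagen genes passed edgeR's threshold, and 1 had an unadjusted p under 0.05. Their summed level was 3789, 8695, 10890 and 11930 CPM in NcstnΔKC skin and 31650, 33160, 3388 and 3791 CPM in normal skin, so the normal pair without Xist stood far above every other library. Mmp2, Mmp3 and Adamts2 split the normal libraries into the same pairs. The normal pair without Xist also lay above the pair with it in Mmp14 and Timp2, and in Mmp27 and Mmp23, which were called lower. Of 11 tested basement membrane and other matrix genes 5 were higher and 1 was lower. This list also holds Eln, which encodes elastin and was higher, and Fn1, which encodes fibronectin and did not pass.

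Several of the genes share exon sequence with a gene on the opposite strand, and the strand setting of the counting is not given in the sources used here. In GENCODE release M21 the share of exon bases was 22.3% for Mmp19 (with Tmem198b), 21.3% for Timp3 (with Syn3), 12% for Mmp28 (with 1700020L24Rik), 9.2% for Adamts9 (with A730049H05Rik) and 5.6% for Mmp11 (with Chchd10). For Mmp1b, which was below the filter, it was 10.8% (with Mmp12). If strand was not used, reads from those stretches cannot be told apart.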

How the data were processed

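Counts per Ensembl gene and FPKM values were deposited by the authors in 1 table for 8 libraries. Per the submitters' processing notes, the tools were TopHat2 2.0.9, TopHat and HTSeq, and the builds mm10 and hg38 were named without a role. Strand setting and annotation release are not given in the sources used here. Of the 46 genes, 29 have the same coordinates in GENCODE release M21 for GRCm38. The deposited counts were raw, and the authors' FPKM values equal a gene constant times the count over the column total. No column of another sample was present.

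The groups NcstnΔKC (4) and normal (4) were compared with edgeR 4.0.16 in R 4.3.3 (filterByExpr, TMM, robust quasi-likelihood test, two-sided, Benjamini-Hochberg adjustment over 15684 genes, threshold 0.05). The fit used no covariate. Standard errors are the log2 fold change over the root of F. The common biological coefficient of variation was 0.315. CPM used TMM-scaled library sizes. Where a group had 0 counts, its sum was taken as 3 for a bound. Ratios and bounds of low counts are scaled by the summed TMM library sizes of each group and ratios carry 95% counting intervals, which cover counting error only. Alternatives used DESeq2 1.42.0 and limma 3.58.1, and limma-trend used log2 FPKM after adding 1. The procedure was tested on simulated data. Promoter windows came from RefSeq tables for GRCm38.p6. Figures used Python 3.11.15, pandas 2.3.3, numpy 2.4.6 and matplotlib 3.10.9.

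The members, roles and related lists were chosen with earlier results of these data known. Values in every library are given for all TIMP genes, for called genes averaging at least 1 CPM (up to 12 in each direction) and for the 3 genes highest by FPKM. Mmp3, Mmp10, Mmp14, Adamts2 and Adam8 were given per library after their values were seen. From each list up to 4 genes of lowest p could be named, and others for their role.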

Additional observations from a re-analysis of the deposited data

Results flagged for a closer look

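In 5 of 70 sets of 4 libraries (each of the 35 tested genes in each group), 1 library lay far from the other 3 by Dixon's criterion, where chance would give about 3.5. In NcstnΔKC replicate 1, Adamts14 had 29.4 CPM while the other 3 NcstnΔKC libraries had 14.5 to 15.4. The same library had 12.3 CPM of Adamts17, with 3.57 to 4.07 in the other 3, and 5.75 CPM of Mmp17, with 3.33 to 3.57 in the other 3. NcstnΔKC replicate 2 had 18.5 CPM of Adamts10, below the 22.7 to 23.1 CPM of the other 3. Normal replicate 1 had 15.4 CPM of Mmp15, below the 21.6 to 22.6 CPM of the other 3 normal libraries.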

How the results depend on the processing

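Under 26 alternatives the 18 called genes kept their sign wherever they were tested. The 6 genes called lower became 2 with total counts and with limma-trend on FPKM, 10 with basal keratinocyte scaling, 3 with Xist as a covariate, and 2 to 7 when 1 library was left out. The 12 called higher became 19 in the libraries with Xist alone and 0, with 0 lower, in those without, and were 11 to 14 when 1 library was left out. Mmp8, Mmp13, Mmp10 and Mmp1b, among the 19, had to point one way. Of all genes, 43.8% were called with Xist as a covariate and 35.5% to 50.5% when 1 library was left out, against 44.1% in the TMM fit. DESeq2's Wald test called 14 higher and 7 lower (47.8% of all genes). limma-voom called 10 and 6 (42.7% of all genes), with Mmp9, Mmp12, Mmp13 and Timp1 lost and Adamts7 and Mmp14 gained. A filter of 5 CPM in 4 libraries, added after seeing the data, gave 9 and 5 of 27 tested (46.7% of all genes). Over all genes, total counts gave 5400.0 higher and 2174 lower, limma-trend 5351 and 2115, basal keratinocyte scaling 1000 and 5821, and the libraries without Xist 3 and 1.

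Only genes not called in the TMM fit changed sign. Mmp17 was 0.034 with total counts, 0.021 with limma-trend and 0.18 without Xist. Basal keratinocyte scaling gave -0.26 for Adamts2, -0.22 for Adamts5, -0.20 for Mmp2 and -0.34 for Timp4. The libraries with Xist gave 0.056 for Adamts3 and 0.23 for Timp2, and those without gave -0.64 for Adamts2, -0.10 for Adamts5, -0.33 for Mmp2 and -0.40 for Mmp3. Timp4 was -0.017 without NcstnΔKC replicate 1 and normal replicate 2, and Adamts8 was 0.083 without normal replicate 1 (-0.60 to 0.083 when any 1 library was left out). The causes were not tested.

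Deviations of libraries with the same replicate number correlated at -0.03 to 0.22 over genes, and those with different numbers at -0.19 to 0.24. This check cannot exclude pairing, and in both groups replicates 3 and 4 were the libraries with Xist. The replicate block gave 11 higher and 2 lower (38.1% of all genes called). Of the 11 genes under the filter, Mmp7 and Mmp20 had 0 counts in every library, and whether depth limited the others was not tested. Thinning to 5835422 counts left 33 genes tested, 11 higher and 5 lower (42.7% of all genes called).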
